A study of Rattus norvegicus with 18 samples.

Results

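Methylation around Gad1 was described from the 178 cytosines of CpG dinucleotides that the deposited table lists between positions 56850001 and 56910000 of chromosome 3 (build rn6), an interval chosen to hold the gene with its flanks, out of 2330883 cytosines in all. They belong to 113 CpGs, of which 65 were measured on both strands and 48 on 1 strand. The DNA came from hippocampi of 18 adult male Sprague-Dawley rats. The kindling model, with 4 sham and 4 seizure rats, uses electrical stimulation through hippocampal electrodes. The kainic acid model, with 7 sham and 3 seizure rats, uses electrode surgery and then rising doses of kainic acid, an agonist of glutamate receptors, given systemically until status epilepticus. Seizure rats of either model are labelled as having had 3 class V seizures, and tissue was collected 24 hours after the final one. The sources used here do not say what sham rats underwent. Each sample is 1 rat, and the series asks what the models share. The mean level over all cytosines was 42.1 to 43.3% in the 18 rats, and the read depth is unknown.

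Gad1 encodes glutamate decarboxylase, also called Gad67, the enzyme that turns glutamate into the inhibitory transmitter GABA. In the hippocampus it is made by inhibitory interneurons, which are a minority among the excitatory neurons and glia. Promoters rich in CpGs are usually unmethylated whether or not the gene is active, while cytosines at their borders (shores) and in gene bodies carry more methylation. The samples hold the DNA of all hippocampal cells, so a level is an average, and a change in a cell type's share cannot be told apart from a change within its cells.

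The sequence just before the annotated start of Gad1 shows how rich in CpGs this promoter is. The following 250 bases precede the start in RefSeq's GRCr8 build (chr3:75777202-75777451, plus strand), which is a later build than that of the methylation table, and the capitals mark CCGG, the site that MspI cuts.
Gad1 promoter: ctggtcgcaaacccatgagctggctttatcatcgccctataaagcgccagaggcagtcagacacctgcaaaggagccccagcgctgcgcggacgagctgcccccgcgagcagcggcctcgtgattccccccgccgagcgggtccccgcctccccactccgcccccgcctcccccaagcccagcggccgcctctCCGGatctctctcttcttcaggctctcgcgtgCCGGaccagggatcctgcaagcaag
The stretch holds 23 CpGs, against a median of 5 over the same 250 bases of 33469 promoters, and 87.7% of promoters hold fewer. It has 2 CCGG sites, at bases 194 and 226 counted from its 5′ end, a motif that reads the same on both strands. Of the promoters, 46.2% hold at least 1 such site and 25.4% hold 2 or more.

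No rn6 sequence or annotation was used, so the start of the gene was sought by laying the CpGs of the 300 bases held for this promoter (250 before the start and 50 after it) over the measured CpGs. Of all placements in the interval, in either orientation, that cover at least 3 measured CpGs, 2 had a CpG of the sequence under every one they cover, 3 in each case. In the placement that begins at 56861190, the measured CpG at 56861416 falls on the CCGG at base 226. The annotated start would then lie at 56861440, inside a dense stretch described next. In the other placement, which begins at 56857672, the outermost measured CpG does not fall on a CCGG. A match of 3 CpGs does not settle the position, and exons, introns and UTRs were not assigned. The gene model spans 40840 bases in GRCr8.

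The cytosines were therefore ordered by position alone. They fall into 16 runs, stretches in which neighbouring measured cytosines lie at most 300 bp apart. A run with at least 20 cytosines over at least 200 bp was called dense, as a stand-in for a CpG island. Of the 178 cytosines, 102 lay in 4 dense runs, 49 lay within 2000 bp of one and were called shore-like, and 27 were the remaining ones.

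Along the locus the methylation level rose from a nearly unmethylated centre to a methylated far end. At CpGs measured on both strands, averaged over the 18 rats, the dense run from 56861417 to 56861662 had 2.92% and the dense run from 56862669 to 56862928 had 2.77%. The dense run from 56858155 to 56858461, upstream of them, had 6.03%. Downstream the level climbed in steps, with 8.34% in the run starting at 56864115, 15.4% in the run starting at 56864669 and 45.5% at the 1 CpG so measured in the dense run from 56865507 to 56866001. That CpG does not stand for its run, which averaged 32.8% over all 20 cytosines. The other 18 were measured on 1 strand, 2 of them near 98% and the others from 5.45 to 50.7%. The level on both strands was low again in the runs starting at 56867357 and 56867763, with 2.29% and 9.91%. The distal runs were of intermediate level, with 54.5% at 56875627, 58.4% in the run starting at 56893791 and 48.6% in the run starting at 56896002. The last run, from 56900837 to 56900924, had 95.7%. At the other border the lone cytosines at 56850260 and 56852547, each measured on 1 strand only, had 93.2% and 98.1%.

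**Figure D1:**
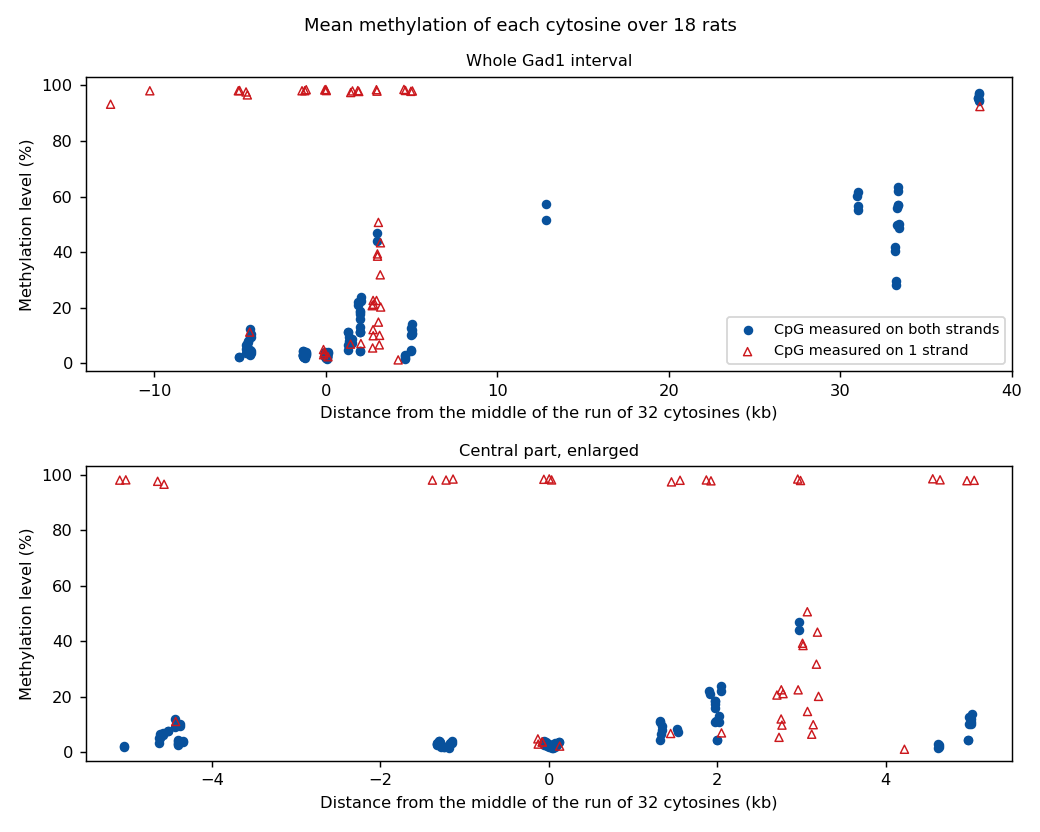
Mean methylation level of each of the 178 cytosines over 18 rats (y axis, %) against its distance from the middle of the dense run of 32 cytosines (x axis, kb), for the whole interval (top) and its central part (bottom). Filled circles are CpGs measured on both strands and open triangles those measured on 1 strand. The circles of the central runs lie at 24.0% or below, apart from 1 CpG at about 3 kb (45.5%). A row of triangles lies near 98%.

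Averaged over the 18 rats, the strands of a CpG had like levels. Over the 65 CpGs measured on both, the mean difference between strands had a median size of 0.695 points and reached at most 6.19 points. Within single rats the strands were less alike, and the SD of their difference over these CpGs was 3.66 to 6.73 points. Cytosines measured on 1 strand only behaved otherwise. Of these 48, 12 had a mean under 10%, 13 lay between 10 and 90%, and 23 were above 90%, whereas 6 of the 130 on both strands were above 90%.

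In the low central part, 20 of the one-strand cytosines had 96.6 to 98.6%, with no rat below 87.5%, amid neighbours that were mostly unmethylated. An example is the plus-strand cytosine at 56862804, in the middle of the dense run of 32 cytosines, with 98.5%, while 22 cytosines of both-strand CpGs within 100 bp averaged 2.68%. The minus-strand cytosine at 56861417, at the edge of the next dense run, had 98.1% beside 12 such cytosines with 3.24%. The 20 were spread over 9 runs, with 11 on the minus strand and 9 on the plus strand. After 10 of the 11 minus-strand ones a plus-strand one followed in the same run, 33 to 245 bp further on. The pattern is not particular to this locus. Genome-wide, 111371 one-strand cytosines had at least 4 cytosines of both-strand CpGs within 100 bp with a mean under 20%, and 56.2% of them were above 90%, against 3.31% of 1053735 both-strand cytosines in such surroundings. Such cytosines raise every average over a low region. In kindling sham rats the dense runs averaged 16.95% ± 0.784 (SD, n = 4) over all 102 cytosines, and 4.70% ± 0.770 (SD, n = 4) over the 70 whose CpG was measured on both strands. Cytosines above 90%, 10 of the 102, account for only part of that fall. The 70 also leave out 18 of the 20 cytosines of the dense run starting at 56865507, most of them between 10 and 90%. The tile from 56857001 to 56858000, at 50.2%, is the plain case: 2 of its cytosines are on both strands and average 2.19%, and its other 2 are one-strand cytosines of 98.1 and 98.2%. Per the labels the MspI ends were made blunt before the adapters were ligated, a step that can fill in cytosines at fragment ends, and the level of such a cytosine would not be that of the rats' DNA. Whether the one-strand cytosines near 98% lie at fragment ends was not tested, since no rn6 sequence was used. The same limit holds for every class, run and tile mean that contains them.

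In the 3 low dense runs the sham and seizure rats overlapped in both models. In the run of 23 cytosines starting at 56858155, the kindling sham rats 1 to 4 had 13.98, 13.7, 14.1 and 12.4%, and the kindling seizure rats 1 to 4 had 15.9, 13.2, 16.4 and 12.0%. The kainic acid sham rats ranged from 13.5 to 15.1% with a median of 14.4%, and the kainic acid seizure rats 1 to 3 had 13.7, 15.4 and 14.7%. Kindling seizure rats 1 and 3 stood highest and rat 4 lowest of all rats, so the seizure values enclosed the sham values.

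In the run of 27 cytosines starting at 56861417, the kindling sham rats 1 to 4 had 13.6, 13.3, 14.2 and 12.5% and the kindling seizure rats 13.5, 13.1, 15.1 and 12.9%. The kainic acid sham rats ranged from 12.5 to 14.4% with a median of 13.3%, and the seizure rats 1 to 3 had 13.97, 14.99 and 13.1%. Sham and seizure rats overlapped in both models. The run of 32 cytosines starting at 56862669 was the lowest of the dense runs. Kindling sham rats averaged 11.9% ± 0.858 (SD, n = 4) there, and their seizure counterparts 11.8% ± 0.843 (SD, n = 4). For kainic acid the sham mean was 11.7% ± 0.957 (SD, n = 7) and the seizure mean 12.1% ± 0.574 (SD, n = 3).

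The dense run of 20 cytosines starting at 56865507 differed from these in its level and in its spread. The kindling sham rats 1 to 4 had 33.3, 36.9, 33.2 and 31.4%, and the kindling seizure rats 1 to 4 had 44.4, 33.9, 33.0 and 26.0%. The kainic acid sham rats ranged from 29.3 to 33.7% with a median of 32.4%, and the kainic acid seizure rats 1 to 3 had 31.0, 29.5 and 34.4%. The highest and the lowest of all 18 rats were thus both kindling seizure rats, and the SD of that group was 7.58 points against 1.51 to 2.54 points in the others. Kindling seizure rat 1 was the highest of its group at 16 of the 20 cytosines and the highest of all 18 rats at 12, and rat 4 was the lowest of its group at 14. Rat 4 was the lowest of all 18 rats at only 4 of the 20. Rat 1 had 41.2% over the 8 plus-strand and 46.6% over the 12 minus-strand cytosines, the highest of all rats on each strand. Rat 4 had 26.0 and 26.1%, the lowest of all rats on the minus strand, while on the plus strand kainic acid rats with 24.4 to 25.6% lay below it. Most of this run, 18 of 20 cytosines, was measured on 1 strand only.

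**Figure D2:**
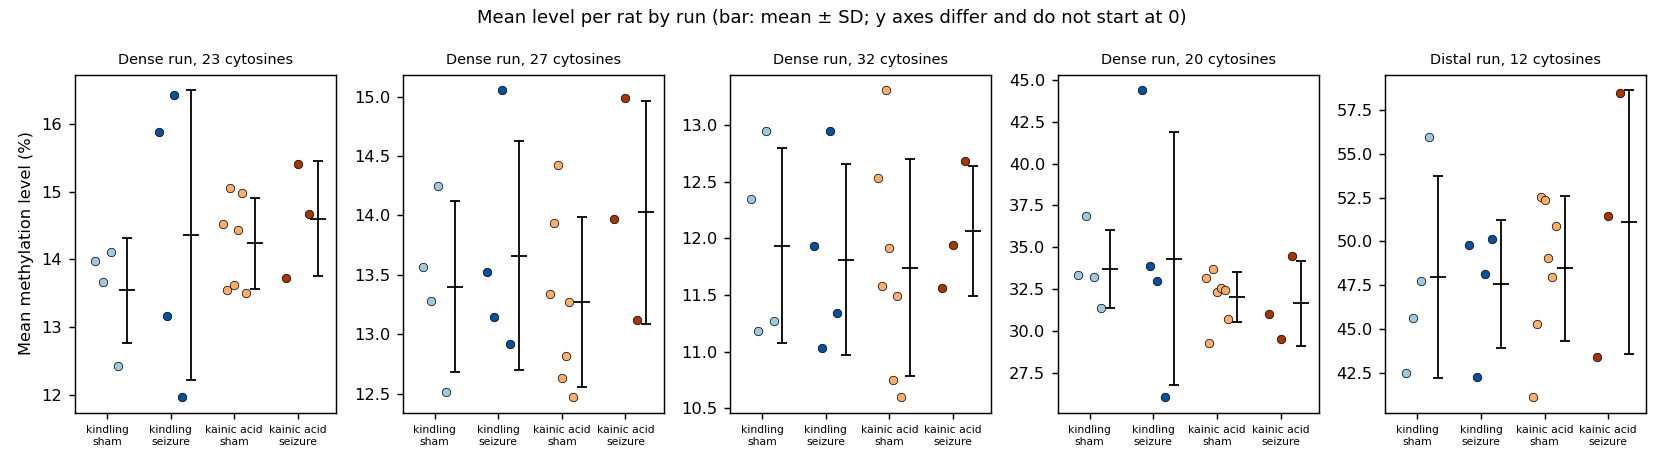
Mean methylation level (y axis, %) of each rat (points) over 5 runs of the Gad1 interval, by group (x axis), with mean ± SD as bars; the y axes differ between panels and do not start at 0. Sham and seizure rats overlap in every panel, and kindling seizure rats 1 and 4 lie apart, at 44.4% and 26.0%, in the dense run of 20 cytosines.

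The distal run of 12 cytosines from 56896002 to 56896190 also varied between rats, and its groups overlapped. The kindling sham rats 1 to 4 had 42.5, 45.6, 47.7 and 56.0%, and the kindling seizure rats 49.8, 42.3, 48.1 and 50.1%. The kainic acid sham rats ranged from 41.1 to 52.5% with a median of 49.1%, and the kainic acid seizure rats 1 to 3 had 43.4, 51.4 and 58.5%. Kainic acid seizure rat 3 was the highest of its group at 9 of the 12 cytosines and kindling sham rat 4 at 8. Of the 5 cytosines with the largest range over the 18 rats, 3 lie here. The largest was the minus-strand cytosine at 56896133, which ran over 51.3 points, from 31.6% in a kainic acid sham rat to 82.9% in a kainic acid seizure rat. The other such cytosines were 56896101 and 56896167, with ranges of 42.6 and 40.5 points, and, in the dense run of 20, 56865811 and 56865868, with 41.5 and 38.6 points. The 3 in the distal run are all on the minus strand. At 56896133, 56896101 and 56896167 the SD between rats within groups was 15.4, 11.7 and 11.4 points. The plus strands of the same CpGs did not share this spread, with 6.46, 5.96 and 6.39 points.

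Seizure and sham rats were then compared over the classes of position. In kindling, the mean over all 178 cytosines was 27.3, 27.5, 27.2 and 26.99% in sham rats 1 to 4 and 29.2, 26.6, 28.5 and 26.1% in seizure rats 1 to 4. Seizure rats 1 and 3 lay above every sham rat and rats 2 and 4 below every one, so the difference of 0.359 points was within the spread (two-sided exact permutation p = 0.629, adjusted p = 0.8). Without seizure rat 1 it was -0.187 points. In kainic acid the sham rats ranged from 26.7 to 28.5% with a median of 27.03%, and the seizure rats 1 to 3 had 27.3, 27.5 and 28.7%. All 3 seizure rats lay above the sham mean of 27.2% ± 0.652 (SD, n = 7), by 0.577 points on average, and the groups overlapped (two-sided exact permutation p = 0.25, adjusted p = 0.8). The difference was 0.152 points without seizure rat 3.

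Over the dense runs the kindling sham rats 1 to 4 had 17.2, 17.3, 17.5 and 15.8% and the seizure rats 19.6, 16.6, 18.2 and 14.8%. The seizure mean of 17.3% ± 2.09 (SD, n = 4) exceeded the sham mean of 16.95% ± 0.784 (SD, n = 4) by 0.337 points (exact permutation p = 0.8). This difference was -0.438 points without kindling seizure rat 1 and -0.0482 points without kindling sham rat 4. For kainic acid the sham mean was 16.7% ± 0.760 (SD, n = 7), and the seizure mean of 16.99% ± 0.511 (SD, n = 3) lay 0.308 points above it (exact permutation p = 0.508). Leaving out each rat in turn gave 0.0468 to 0.557 points, the lowest without seizure rat 3. Without the one-strand cytosines, 18 of which lie in the dense run starting at 56865507, the difference was 0.580 points (exact permutation p = 0.167). The shore-like cytosines differed by 0.277 points in kindling, from 27.9% ± 0.995 (SD, n = 4) to 28.1% ± 1.40 (SD, n = 4), and by 0.789 points in kainic acid, from 27.7% ± 0.725 (SD, n = 7) to 28.5% ± 0.856 (SD, n = 3). Their exact permutation p was 0.771 in kindling and 0.158 in kainic acid. The kainic acid value was 0.470 points without seizure rat 1 and 1.28 points without seizure rat 2. The kindling value became -0.324 points without seizure rat 3 and -0.0564 points without sham rat 3. The remaining cytosines, toward both ends of the interval, went from 65.04% ± 2.52 (SD, n = 4) to 65.6% ± 1.90 (SD, n = 4) between sham and seizure in kindling. In kainic acid they went from 66.3% ± 2.44 (SD, n = 7) to 67.5% ± 2.88 (SD, n = 3). The differences were 0.593 and 1.21 points (exact permutation p = 0.771 and 0.525). The first became -0.275 points without kindling sham rat 1, and the second became -0.303 points without kainic acid seizure rat 3. Over the 24 cytosines of this class on both strands the differences were 0.176 and 1.53 points (exact permutation p = 0.943 and 0.467).

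None of the 8 comparisons passed (each adjusted exact permutation p = 0.8). The smallest p that the test can give is 0.0286 with 4 against 4 rats and 0.00833 with 7 against 3. With the kindling value subtracted from the kainic acid value, the models differed by 0.218 points over all cytosines, -0.0288 points in the dense runs, 0.512 points in the shore-like class and 0.618 points in the remaining class. None of these passed (exact permutation with seizure labels moved within each model, adjusted p = 0.983 for each of the 4). The classes overlap with the whole by construction. Each exact permutation p is the share of label arrangements among these rats with a difference at least as large as that seen.

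**Figure D3:**
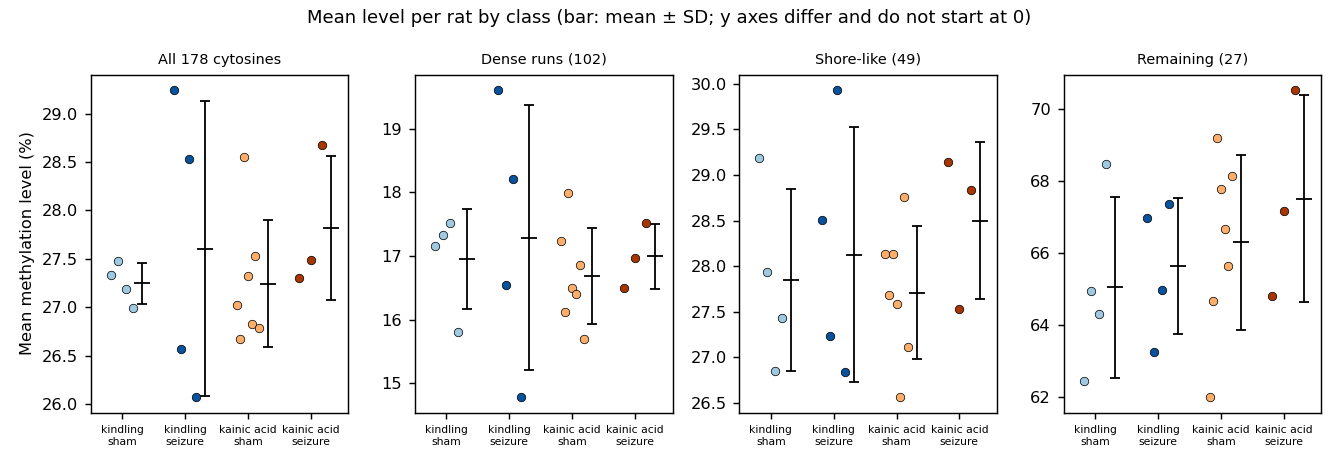
Mean methylation level (y axis, %) of each rat (points) over all 178 cytosines, the dense runs, the shore-like and the remaining cytosines, by group (x axis), with mean ± SD as bars; the y axes differ and do not start at 0. The kindling seizure rats are spread from 26.1 to 29.2% over all cytosines, to both sides of the kindling sham rats at 26.99 to 27.5%.

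At the scale of 1000 bp tiles with at least 3 cytosines the interval holds 10 tiles. The test, limma fitted over all tiles of the table, was planned for tiles whose range over the 18 rats reached 5 points, and 3 of the 10 did. The tile from 56865001 to 56866000, which holds the dense run of 20, differed by 0.200 points in kindling (95% interval -5.24 to 5.64) and by -0.154 points in kainic acid (-5.47 to 5.16). The tile from 56893001 to 56894000 averaged 56.9% ± 2.53 (SD, n = 4) in the kindling sham group. It was 1.53 points higher in the seizure group (-3.49 to 6.56), or 0.193 points without seizure rat 4 and 2.88 points without seizure rat 3. In kainic acid it differed by -0.319 points (-5.22 to 4.59). The tile from 56896001 to 56897000 differed by -0.389 points in kindling (-7.44 to 6.66) and by 2.65 points in kainic acid (-4.23 to 9.53). The last value was -1.02 points without kainic acid seizure rat 3, and the kindling value of the first tile was -3.09 points without seizure rat 1.

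No tile of the interval passed an adjusted p of 0.05 in either model (limma; 0 of 3 in each, 0 at an unadjusted p under 0.05). Over all 84600 tiles tested, 0% passed in kindling and 0% in kainic acid, and 5.71 and 3.54% had an unadjusted p under 0.05. Sham and seizure rats overlapped at all 3, while 2.44% of tiles separated them in kindling and 1.49% in kainic acid. The smallest limma adjusted p in the interval was 0.961 in kindling and 0.99995 in kainic acid. The models' differences from each other were 3.04 points in the tile starting at 56896001, -1.85 points in that starting at 56893001 and -0.354 points in that starting at 56865001, and none passed (limma, each adjusted p = 0.99987). Over all tiles 0% passed for this contrast and 4.75% had an unadjusted p under 0.05. The mean of both models' differences passed at 0 of 3 tiles as well, with 0 at an unadjusted p under 0.05 (limma, smallest adjusted p 0.993), against 0% and 4.56% of all tiles.

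The other 7 tiles had ranges of only 2.39 to 4.82 points. In a fit of all tiles without the range filter, their 95% intervals lay between -2.82 and 2.53 points in kindling and between -1.34 and 2.88 points in kainic acid. Taken singly, each interval limits the difference of that tile's mean, one-strand cytosines included, to about that size. Over the 10 tiles, 7 were higher in kindling seizure rats and 8 in kainic acid seizure rats by this fit, all intervals reached across 0, and the groups overlapped at every tile. Among tested tiles only, 2 of the 3 in the interval were higher in kindling seizure rats, against 56.1% in the whole table. For kainic acid seizure rats it was 1 of the 3, against 57.4%.

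**Figure D4:**
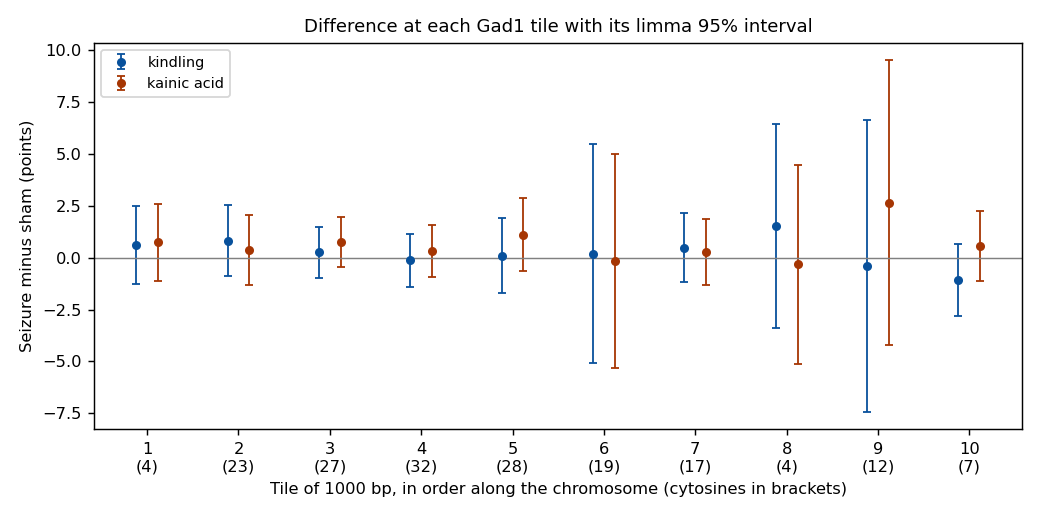
Seizure minus sham difference in percentage points (y axis) with its 95% interval at the 10 tiles of the Gad1 interval in chromosome order (x axis, number of cytosines in brackets), for kindling and kainic acid, from the limma fit without a range filter. Every interval crosses 0, and the intervals are widest at the intermediate tiles 6, 8 and 9.

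Of the 178 single cytosines, 73 had a range of at least 10 points and were tested, and 0 passed in kindling or kainic acid (limma, smallest adjusted p 0.818 in kindling and 1 in kainic acid). An unadjusted p under 0.05 was reached by 3 of 73 (4.11%) in kindling and 2 (2.74%) in kainic acid, against 5.72 and 3.82% of 800733 cytosines in the table. Without the range filter 9 of 178 in kindling and 8 in kainic acid reached it (limma), against 5.12 and 5.78% of all cytosines. Of the 800733 cytosines with a range of at least 10 points, 0% passed in kindling and 0.000624% in kainic acid. Seizure rats were the higher group at 39 of the 73 in kindling and 44 in kainic acid, beside 54.3 and 55.2% of all cytosines tested. The contrast between the models passed at 0 of 73 (limma, smallest adjusted p 0.999) with 3 at an unadjusted p under 0.05, against 0.000624 and 4.63% of all. The mean of both models passed at 0 of 73 (limma, smallest adjusted p 0.984) with 1 at an unadjusted p under 0.05, against 0 and 4.73% of all.

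The smallest kindling p belonged to the lone cytosine at 56850260 (minus strand), at the upstream border, measured on 1 strand only. The kindling sham rats 1 to 4 had 75, 95, 91.7 and 80% and the seizure rats 96.8, 95.5, 91.3 and 100%. Sham rats 1 and 4 were low, sham rats 2 and 3 lay among the seizure rats, and the kainic acid sham rats ranged from 90.6 to 100%. The difference was 10.5 points (SE 3.69, limma adjusted p = 0.818). Next came 56864776 (minus strand) in the shore-like run that starts at 56864669, with 19.1, 10.6, 11.5 and 11.4% in sham rats and 17.8, 17.6, 22.4 and 17.8% in seizure rats (5.77 points, SE 2.53, limma adjusted p = 0.864). Sham rat 1 lay among the seizure rats there. The third was 56858358 (minus strand) in the dense run of 23 cytosines, with 5.3, 8.2, 7.0 and 0% against 18.3, 9.6, 17.3 and 2.1%, a difference of 6.69 points (SE 3.17, limma adjusted p = 0.872). Seizure rats 1 and 3 were high there and rat 4 was not. At 56864326 and 56864768, the others of the 5 with the smallest p, the differences were 4.46 and 4.14 points, or 2.10 points without seizure rat 3 at the former and 2.65 points without sham rat 3 at the latter.

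In kainic acid the smallest p belonged to 56864849 (plus strand), the last cytosine of the run that starts at 56864669. The sham rats ranged from 3.6 to 7.8% and the seizure rats 1 to 3 had 12.4, 7.5 and 14%, a difference of 5.58 points (SE 2.27, limma adjusted p = 1), with seizure rat 2 among the sham rats. At 56896063 (plus strand) in the distal run the sham rats ranged from 21.9 to 40.7% and the seizure rats had 37.1, 32.7 and 44.7%, a difference of 11.02 points (SE 4.66, limma adjusted p = 1). Among the kindling rats the sham group had 31.2% ± 7.38 (SD, n = 4) and the seizure group 26.2% ± 6.65 (SD, n = 4) at this cytosine. The others of the 5 differed by -6.50 points at 56865557, 5.72 points at 56865938 and -3.57 points at 56900868. Leaving out each rat in turn gave -9.71 to -3.46, 1.75 to 9.59 and -5.07 to -1.78 points at these, with the smallest sizes without kainic acid seizure rat 2 at the first and rat 3 at the other two.

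Groups that did not overlap were rare. Among the tested cytosines of the interval 1 of 73 separated kindling sham from seizure rats and 0 separated the kainic acid groups, against 2.42 and 1.53% in the table. Over all 178, tested or not, 3 separated the kindling groups and 2 the kainic acid groups, against 1.82 and 1.71% of all cytosines. The untested ones, also named after their values were seen, were 56861467 and 56862740 in kindling and 56864795 and 56900838 in kainic acid. Their group means differed little, for example 2.17% in sham and 4.39% in seizure rats at 56861467, and 4.34 and 6.85% at 56864795. The 1 tested was the minus-strand cytosine at 56875628, named after its values were seen. The kindling sham rats 1 to 4 had 50.2, 55.0, 54.8 and 51.4% and the seizure rats 57.2, 62.1, 60.3 and 56.0% (6.03 points, limma adjusted p = 0.895). On its plus strand, at 56875627, the difference was 2.99 points and the groups overlapped.

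The spread between rats at the Gad1 tiles was near what the table shows for tiles of like level, with 1 exception. The SD between rats within groups was 0.808 to 1.19 points at the 3 tiles with the low dense runs, where tiles with a mean of 10 to 20% have a median SD of 0.768 points. The means of these 3 tiles also include one-strand cytosines above 90%, and their CpGs on both strands averaged 2.77 to 6.03%. It was 3.79 points at the tile starting at 56865001, against 3.15 points for tiles of 30 to 40%, and 5.03 points at the tile starting at 56896001, against 3.69 points for tiles of 40 to 50%. The exception was the tile starting at 56857001, with 0.530 points against 3.64 points for tiles of 50 to 60%, whose mean of 50.2% is that of 2 low and 2 high cytosines and not of intermediate ones.

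**Figure D5:**
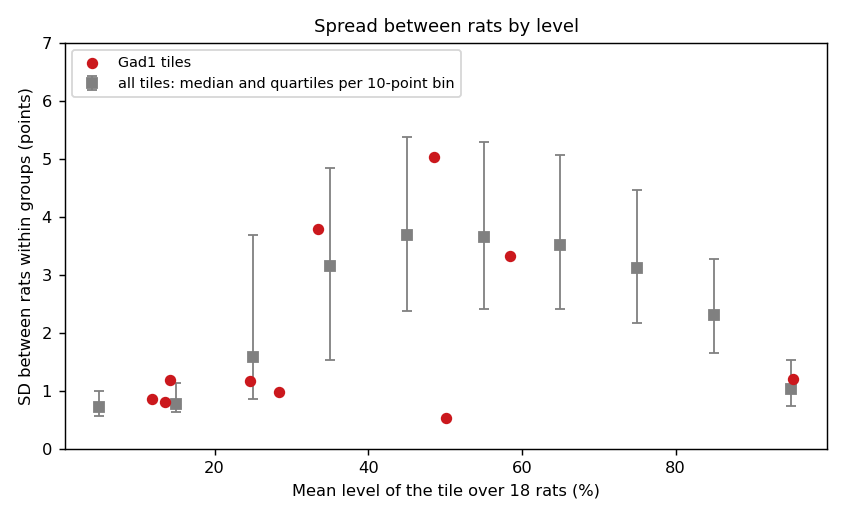
SD between rats within groups (y axis, points) against the mean level over 18 rats (x axis, %) for the 10 tiles of the Gad1 interval (red) and, as grey squares with quartiles, the median of all tiles of the table in bins of 10 points. Most red points lie near the grey squares, and the tile at 50.2% with an SD of 0.530 points lies far below them.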

How the data were processed

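The deposited table holds a methylation fraction (beta value, 0 to 1) per cytosine and rat, per the file headers and values, with 0 missing values and no read counts, so the depth is unknown and no interval is given for single values. Per the labels' protocols, DNA was cut with MspI, made blunt, ligated to adapters with methylated cytosines, size-selected, bisulfite-treated and amplified. Build rn6 and the tools Bismark, Bowtie2, methylKit, Trim Galore and FastQC are listed in the submitters' processing notes. Their versions and filters are not given here.

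Columns were matched to rats by library name. Fractions were multiplied to percent. Class means were compared by exact permutation, with Benjamini-Hochberg adjustment over 8 comparisons. Tiles (range at least 5 points) and cytosines (range at least 10 points) were fitted over the whole table with limma 3.58.1 in R 4.3.3 (1 fit over 4 groups, 14 residual degrees of freedom, variance trend), contrasts being seizure minus sham per model, their mean and their difference, and adjusted over all units. The tile fit and the exact test were tried on simulated data, with planted shifts far larger than the tile and class differences here. Shifts of the size reported here were not simulated. Named are each dense run and tile, the 5 cytosines of smallest p per model, and the 5 of largest range. The interval, classes and lists were chosen with earlier results of these data known. The one-strand cytosines were examined after their values were seen. Promoter sequence is from RefSeq (GRCr8; Gad1 matched by symbol). Figures used matplotlib 3.10.9.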

Additional observations from a re-analysis of the deposited data

Results flagged for a closer look

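At the minus-strand cytosine 56864776, kindling sham rat 1 stood apart from the other sham rats, with 19.1% against 10.6 to 11.5%. At the same cytosine kindling seizure rat 3 stood apart from the other seizure rats, with 22.4% against 17.6 to 17.8%. Dixon's criterion was applied to 99 groups of rats and exceeded in these 2, where chance alone exceeds it in about 5% of groups.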

How the results depend on the processing

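No tile, cytosine or class of the Gad1 interval passed under any alternative run, so the threshold was crossed by none. Differences this small changed sign readily, and the cause was not tested. In the dense runs the kainic acid minus kindling value was 0.0612 on the log2 odds scale, 0.194 points with gaps of at most 500 bp, 0.0749 points with at least 10 cytosines a dense run and 0.159 points without one-strand CpGs, an alternative chosen after seeing the data. The shore-like value of that contrast was -0.224 points with gaps of at most 500 bp. The kainic acid difference in the dense runs was -0.0230 points with the mean level of each rat subtracted. The tile starting at 56865001 gave -0.0023 in kindling on the log2 odds scale and 0.147 points in kainic acid with array weights, and the tile starting at 56896001 gave 0.346 points in kindling with array weights.

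With the replicate block the kainic acid difference was -0.125 points in the dense runs and 0.998 points in the tile starting at 56893001. Rats of the same number did not deviate together (correlations -0.111 to 0.155), 1 of 7 seizure rats correlated best with its own number, and the block left every count of calls at 0.

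Leaving out each rat in turn moved the kindling difference between -0.187 and 0.871 points over all cytosines, -0.438 and 1.17 in the dense runs, -0.324 and 0.722 in the shore-like class and -0.275 and 1.74 in the remaining class. The kainic acid difference moved between 0.152 and 0.837 points over all cytosines, 0.0468 and 0.557 in the dense runs, 0.470 and 1.28 in the shore-like class and -0.303 and 2.56 in the remaining class. The contrast between models moved between -0.293 and 0.764 points over all cytosines, -0.866 and 0.746 in the dense runs, 0.0672 and 1.11 in the shore-like class and -0.896 and 1.97 in the remaining class. In the tile starting at 56865001 the difference moved between -3.09 and 2.86 points in kindling and -1.50 and 1.08 in kainic acid. In the tile starting at 56893001 it moved between 0.193 and 2.88 points in kindling and -1.68 and 1.43 in kainic acid. In the tile starting at 56896001 it moved between -2.21 and 2.28 points in kindling and -1.02 and 6.49 in kainic acid. Cytosines with an unadjusted p under 0.05 (limma) numbered 9 of 178 in kindling and 8 in kainic acid without the range filter, where 5.12 and 5.78% of all cytosines had one. Classes by exon and promoter were not run, since no annotation of rn6 was used. Without read counts, what depth limits cannot be given.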
